A study of Mus musculus with 3 samples.

Results

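Toll-like receptors and the interleukin-1 (IL-1) receptor share an intracellular route to canonical NF-κB, the transcription factor complex of inflammation, and 10 genes of that route were followed here: the receptors Tlr2, Tlr3, Tlr4, Il1r1 and Il1rap, the adaptor Myd88, the kinases Irak1, Irak2 and Irak4, and the ubiquitin ligase Traf6. They were chosen by name, and all 10 were found among the 52948 gene IDs measured. The cells were αTC1-6, a cloned line from a mouse tumour of glucagon-producing pancreatic α cells. Every group consisted of these cells 16 h after infection with an adenovirus, so all groups had been infected. In the control group the virus carried β-galactosidase (β-Gal), and in the other groups NIK or NIK(KA). NIK, the product of Map3k14, is the NF-κB-inducing kinase of the non-canonical pathway. NIK(KA) is known as its kinase-dead mutant, although the labels give only the name. The dose of virus and the share of infected cells are not known here. Each group was a single library, so differences cannot be set against a spread between cultures and carry no p-value.

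Toll-like receptors recognise microbial molecules, TLR2 lipoproteins, TLR3 double-stranded RNA and TLR4 lipopolysaccharide, while the IL-1 receptor binds the cytokines IL-1α and IL-1β. All of these except TLR3 recruit the adaptor MyD88, which assembles the IRAK kinases, and IRAK1 and IRAK2 pass the signal to TRAF6, the ubiquitin ligase that brings in the kinases TAK1 and IKK. TLR3 signals through the adaptor TRIF, encoded by Ticam1. In islets, IL-1β is best known as a cytokine that harms β cells, and its receptor is known to be expressed on islet endocrine cells.

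Of the 10 genes, Tlr2 had the largest ratio in the NIK library over either other library. Tlr2 was 49.0 times the control level in NIK, while NIK(KA) was at the level of the control within counting error. Tlr3 was also higher in NIK, on 15 reads. The gene with the highest level, Il1r1, was 1.55-fold lower in NIK. Transcripts of the adaptor and the kinases below the receptors were each within 1.4-fold of β-Gal in NIK.

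The promoters of the receptors that differed most are shown first, because Tlr2 and Tlr3 both hold matches to the κB consensus, the 10-base motif bound by NF-κB dimers. The Irak1 promoter is shown as one that holds a match in a gene whose level differed little, and the Il1r1 promoter as that of the gene with the highest level. Each sequence is from RefSeq on GRCm38.p6, runs 5′ to 3′ on the strand of the gene from 250 bases before to 50 bases after a start site, and has matches on either strand in capitals. They lie at chr3:83841559-83841858 (minus strand) for Tlr2, chr8:45410331-45410630 (minus strand) for Tlr3, chrX:74023872-74024171 (minus strand) for Irak1 and chr1:40224830-40225129 (plus strand) for Il1r1.
Tlr2: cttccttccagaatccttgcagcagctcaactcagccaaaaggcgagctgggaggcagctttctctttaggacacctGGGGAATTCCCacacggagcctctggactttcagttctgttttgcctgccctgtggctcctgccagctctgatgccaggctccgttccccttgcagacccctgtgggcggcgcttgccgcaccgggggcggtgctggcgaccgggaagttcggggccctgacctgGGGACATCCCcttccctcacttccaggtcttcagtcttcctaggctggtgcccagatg
Tlr3: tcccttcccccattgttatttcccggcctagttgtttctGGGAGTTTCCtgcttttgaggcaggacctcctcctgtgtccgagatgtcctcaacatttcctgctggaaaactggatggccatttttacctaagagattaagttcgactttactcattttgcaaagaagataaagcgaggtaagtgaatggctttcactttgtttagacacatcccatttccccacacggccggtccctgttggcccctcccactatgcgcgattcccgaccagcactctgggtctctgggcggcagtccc
Irak1: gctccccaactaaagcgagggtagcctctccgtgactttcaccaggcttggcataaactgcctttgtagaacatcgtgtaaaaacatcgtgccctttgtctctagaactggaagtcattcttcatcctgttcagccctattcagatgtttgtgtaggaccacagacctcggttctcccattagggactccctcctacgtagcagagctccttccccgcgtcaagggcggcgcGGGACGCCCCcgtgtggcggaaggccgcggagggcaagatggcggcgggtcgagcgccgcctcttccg
Il1r1: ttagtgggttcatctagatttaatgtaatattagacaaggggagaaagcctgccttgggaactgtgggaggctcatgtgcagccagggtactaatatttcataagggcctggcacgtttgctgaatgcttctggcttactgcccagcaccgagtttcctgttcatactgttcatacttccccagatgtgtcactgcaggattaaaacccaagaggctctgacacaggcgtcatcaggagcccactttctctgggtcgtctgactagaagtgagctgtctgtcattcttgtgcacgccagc
In the Tlr2 window, the upstream stretch, GGGGAATTCCC, holds 2 overlapping matches and spans bases -173 to -163 from the start site, and GGGACATCCC spans -8 to 2. In the Tlr3 window the single match, GGGAGTTTCC, spans -211 to -202. In the Irak1 window GGGACGCCCC spans -18 to -9. The Il1r1 window shown holds no match, and a second Il1r1 window, at chr1:40266336-40266635, holds 1, GGAATGCCCC. Of the 9 genes with a promoter in the table, 4 held a match in at least 1 window, against 9.55% of all 27025 genes. Over all 32851 windows 8.46% held a match, and 0.521% held 2 separate ones, as Tlr2 does. A match is a run of letters in this window and does not show that NF-κB binds there.

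Levels are given in FPKM as deposited, a value per length that allows genes to be compared. Ranges in parentheses after a level or a ratio are exact 95% intervals from recovered reads and cover counting error only. Counted reads per library numbered 18629668 (β-Gal), 15523580 (NIK) and 16652922 (NIK(KA)). As a check of the labels, Map3k14 had a level of 5.35 (β-Gal), 8.42 (NIK) and 12.1 FPKM (NIK(KA)), so both libraries labelled as overexpressing were above the control. How far reads of the viral transgene enter these values is not known. Glucagon (Gcg) and the other 5 α-cell markers were detected in each library. Of the listed genes of other islet cells, Ins1, Ins2, Sst and Ppy had 0 reads. Ghrl, from the same list, had 38 (β-Gal), 34 (NIK) and 49 reads (NIK(KA)). A count of 0 allows up to 3 reads. The heart muscle genes Myh6, Myl2, Myl3, Mb and Actc1 summed to 27.6 FPKM in β-Gal but 0.538 in NIK and 0.983 in NIK(KA), and 4 liver genes summed to 14.5 FPKM in NIK(KA) but 3.89 in β-Gal and 3.17 in NIK. Ratios and differences of NIK against NIK(KA) do not use the β-Gal values, but the genes tested were chosen by their mean level over all 3 libraries. The liver genes differ between NIK and NIK(KA), as their sums show.

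The 10 genes spanned more than 3 orders of magnitude in the control. In β-Gal the order was Il1r1 at 219 FPKM (216 to 223), Irak1 at 94.6 (91.0 to 98.2), Traf6 at 16.1 (15.1 to 17.2) and Irak2 at 5.68 (4.81 to 6.66). Il1rap at 2.43 (2.03 to 2.89) and Myd88 at 2.08 (1.60 to 2.67) followed, and these neighbours did not differ beyond counting error. Irak4 stood at 0.780 (0.547 to 1.08), and Tlr2, Tlr4 and Tlr3 came last with 6, 2 and 1 reads, with overlapping intervals. The α-cell line thus carried much transcript of one receptor and almost none of the 3 Toll-like receptors. In NIK the order changed most for Tlr2, which moved up to stand beside Irak2, at 5.24 (4.601 to 5.93) against 4.38 FPKM (3.55 to 5.34). Tlr3 there stood above Tlr4, on 15 against 3 reads and with overlapping intervals. In NIK(KA) Tlr2 was again among the last 3, and Myd88 and Il1rap changed places within their counting error.

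**Figure D1:**
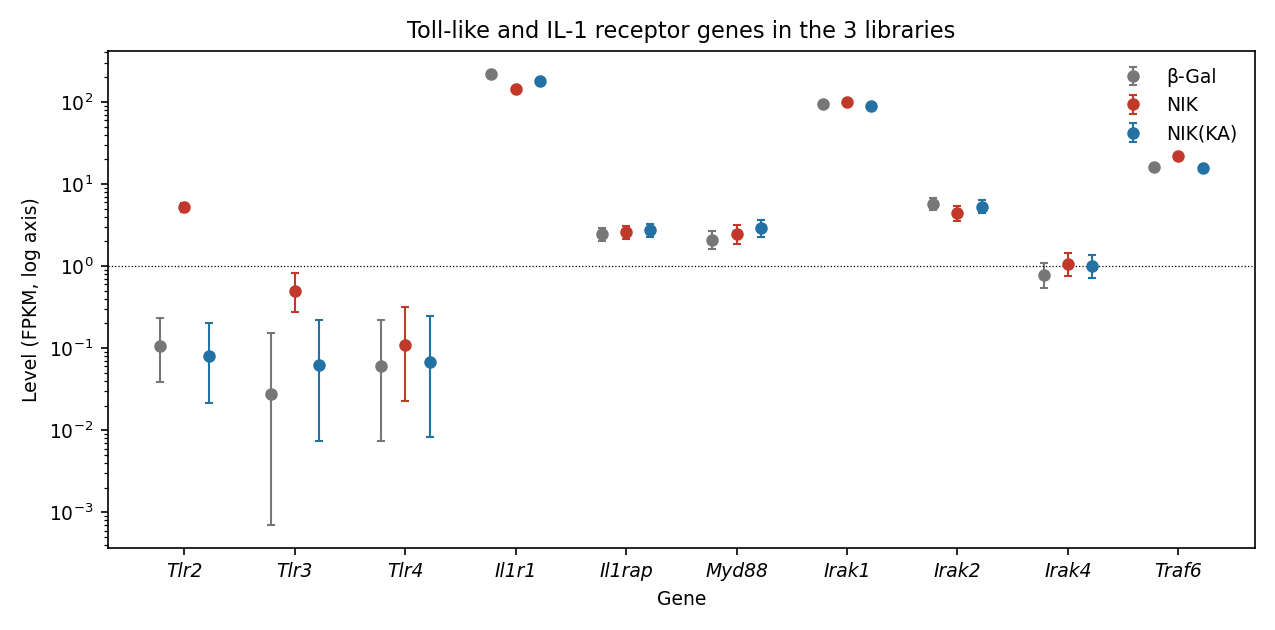
Level of each of the 10 genes in FPKM on a log axis, 1 point per library (β-Gal grey, NIK red, NIK(KA) blue), with bars for exact 95% counting intervals; the dotted line marks 1 FPKM. Tlr2 is at 5.24 in NIK and near 0.1 in the other libraries, whereas Irak1 and Traf6 lie close together in all 3.

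Differences were also put on the log2(FPKM + 1) scale, where a gene with a mean of at least 1 FPKM over the 3 libraries is called higher or lower when it differs by at least 1, that is 2-fold. Of the 10 genes, 7 passed this filter on level, and Tlr3, Tlr4 and Irak4 did not. Tlr2 passed it only through the NIK library. In NIK against β-Gal 1 of the 7, Tlr2, was higher and 0 were lower, whereas 6.63% of all 12950 genes tested were called (5.14% higher, 1.48% lower). In NIK(KA) against β-Gal 0 of the 7 were called, against 0.68% of genes (0.263% higher, 0.417% lower). In NIK against NIK(KA) Tlr2 was again the 1 gene called, against 6.17% of genes (5.07% higher, 1.1% lower). The median difference over all 10 genes was 0.13 in NIK against β-Gal, -0.01 in NIK(KA) against β-Gal and 0.05 in NIK against NIK(KA), and over the 7 past the filter it was 0.09, -0.05 and -0.06. The median over all genes tested was -0.02, 0.01 and -0.03, and over all 26583 detected genes, with no filter, 0, 0.01 and 0. The medians of the 10 and of the 7 lay near those of all genes. The same β-Gal library stands in the first 2 comparisons.

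Counting intervals are narrow at this depth, so a ratio whose interval leaves out 1 is common. In NIK against β-Gal the interval left out 1 for 4 of the 7 genes past the filter (Tlr2, Irak1 and Traf6 higher, Il1r1 lower), beside 55% of all genes tested (26.7% higher, 28.3% lower). In NIK(KA) against β-Gal it did so for 1 of 7, Il1r1, which was lower, beside 33.5% (19% higher, 14.5% lower). In NIK against NIK(KA) it did so for the same 4 genes, beside 55.2% (24.6% higher, 30.5% lower). With 7 genes, these counts are given as a description beside the shares of all genes.

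**Figure D2:**
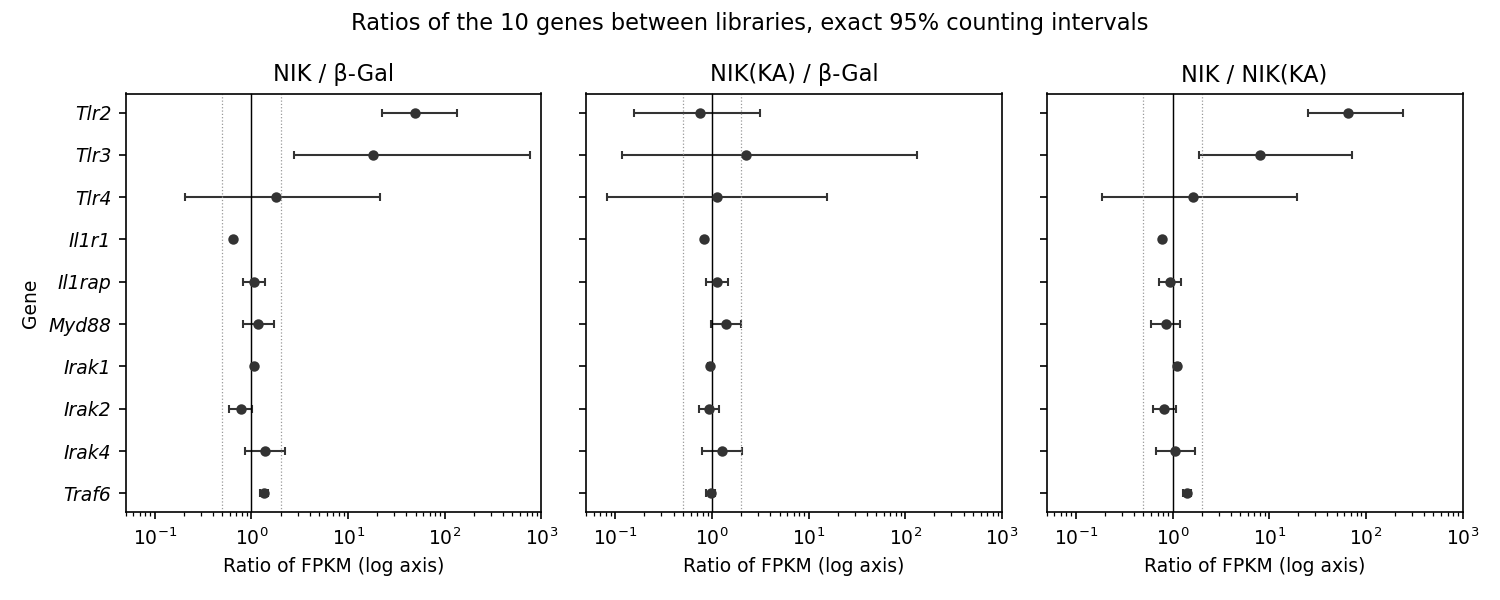
Ratio of FPKM between 2 libraries for each of the 10 genes on a log axis, with exact 95% counting intervals; the solid line marks 1 and the dotted lines 0.5 and 2. In NIK over β-Gal and NIK over NIK(KA) the Tlr2 and Tlr3 intervals lie to the right of 1, and in NIK(KA) over β-Gal they span 1.

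The Toll-like receptors were examined next. Tlr2 (ENSMUSG00000027995, chromosome 3, 83836272 to 83841767 on GRCm38, minus strand) had 6 reads in β-Gal (0.107 FPKM), 245 in NIK (5.24 FPKM) and 4 in NIK(KA) (0.0797 FPKM). Only the NIK library was high, and the other libraries did not differ beyond counting error, at a ratio of 0.746 (0.155 to 3.14). Its ratio was 49.0 (22.2 to 135) in NIK over β-Gal and 65.7 (25.3 to 243) in NIK over NIK(KA). On the log2(FPKM + 1) scale these were differences of 2.49 and 2.53, the 142nd and 122nd highest of 12950 genes. That scale understates the change of a gene with so low a base, and with a pseudocount of 5 the differences were 1.00 and 1.01, at the edge of the 2-fold rule.

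Tlr2 is known as a gene of macrophages and other myeloid cells, and the levels of 12 macrophage and leukocyte markers are given beside it. Of the 12, 5 had no reads in β-Gal, 5 none in NIK and 2 none in NIK(KA), and their summed level was 3.18 (β-Gal), 3.74 (NIK) and 3.09 FPKM (NIK(KA)). The pan-leukocyte gene Ptprc had 0 reads in β-Gal and NIK and 1 in NIK(KA), and Spi1, the transcription factor of myeloid cells, had 0, 0 and 4. Other markers were highest in NIK. Cd68, a lysosomal protein abundant in macrophages and the one marker past the filter, was at 2.43, 3.12 and 1.52 FPKM, a ratio of 1.28 in NIK over β-Gal (0.829 to 1.99) and 2.06 in NIK over NIK(KA) (1.23 to 3.52). Adgre1, which encodes the macrophage protein F4/80, had 0, 7 and 1 reads. Cd14, the lipopolysaccharide co-receptor of monocytes and macrophages, belongs to the list of co-receptors and was at 1.06, 2.21 and 1.07 FPKM, a ratio of 2.09 in NIK over β-Gal (1.32 to 3.36). The T-cell gene Cd4, which is in neither list, was also near 0 outside NIK, where it was at 5.59 FPKM. Cd3e, a T-cell gene among the 12 markers, had 0 reads in each library. The part of leukocyte transcripts in the level of Tlr2 was not tested.

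Tlr3 (ENSMUSG00000031639, chromosome 8, 45395665 to 45411080, minus strand) had 1 read in β-Gal (0.0276 FPKM), 15 in NIK (0.496 FPKM) and 2 in NIK(KA) (0.0617 FPKM). The NIK library was again the high one. The ratios, 18.0 in NIK over β-Gal (2.77 to 758) and 8.05 in NIK over NIK(KA) (1.87 to 72.5), have wide intervals that leave out 1. The level stayed under 1 FPKM in all 3 libraries, so Tlr3 was not tested by the 2-fold rule, and its difference of log2(FPKM + 1) in NIK against β-Gal was 0.54. Tlr4 (ENSMUSG00000039005, chromosome 4, 66827584 to 66930284, plus strand) had 2, 3 and 2 reads, and no difference was detectable at this depth.

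The other Toll-like receptors, named from a list of 9, were nearly silent: their summed level was 0.124 (β-Gal), 0.311 (NIK) and 0.0830 FPKM (NIK(KA)), and 0 of 9 passed the filter. Tlr1 and Tlr6, whose proteins pair with TLR2 at the cell surface, had 3 and 1 reads in NIK and 0 in both other libraries. Tlr9, the endosomal receptor of bacterial DNA, had 0, 7 and 0 reads. A bulk sample cannot tell fewer cells with a transcript from less transcript per cell, and this holds for each level given here.

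The IL-1 receptor chains stood at very unequal levels. Il1r1 (ENSMUSG00000026072, chromosome 1, 40225080 to 40317257, plus strand), which encodes the ligand-binding chain, stood at 219 FPKM (216 to 223) in β-Gal, at 142 (139 to 145) in NIK and at 182 (179 to 185) in NIK(KA). It was the 462nd highest of 21819 protein-coding genes in β-Gal, the 828th in NIK and the 600th in NIK(KA). NIK was the lowest of the 3 libraries and β-Gal the highest, and no intervals overlap. NIK was 1.55-fold below β-Gal (1.504 to 1.59) and 1.28-fold below NIK(KA) (1.25 to 1.32), and NIK(KA) was 1.20-fold below β-Gal (1.17 to 1.23). None of these differences meets the 2-fold rule. The 6 α-cell markers had a median log2 difference in NIK of -0.67 against β-Gal and -0.62 against NIK(KA), beside -0.62 and -0.36 for Il1r1. Their part in the difference of Il1r1 was not tested.

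Il1rap (ENSMUSG00000022514, chromosome 16, 26581704 to 26730117, plus strand), the accessory chain that the receptor needs to signal, had levels of 2.43 (β-Gal), 2.597 (NIK) and 2.74 FPKM (NIK(KA)). The 3 libraries did not differ beyond counting error, with a ratio of 1.07 in NIK over β-Gal (0.823 to 1.39) and 1.13 in NIK(KA) over β-Gal (0.876 to 1.45). By FPKM, transcript of Il1r1 was 90.1 times that of Il1rap in β-Gal, 54.6 times in NIK and 66.4 times in NIK(KA). These ratios rest on mean transcript lengths of 3708 bases for Il1r1 and 2828 for Il1rap. Their exonic bases number 6363 and 11360, so the ratios depend on the length used.

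Il1r1 lies in a cluster of 6 receptor genes of the IL-1 family on chromosome 1, all on the plus strand within 478 kb, with no other protein-coding gene between them. Its neighbours did not all go the same way in NIK. Il1r2, on the upstream side, encodes the decoy receptor that binds IL-1 without signalling, and had levels of 3.996 (β-Gal), 26.7 (NIK) and 4.27 FPKM (NIK(KA)). Its level in NIK was 6.68-fold that in β-Gal (5.14 to 8.80) and 6.25-fold that in NIK(KA) (4.78 to 8.28). Il1rl1, the gene of the IL-33 receptor ST2, had 2, 119 and 1 reads, a ratio of 71.4 in NIK over β-Gal (19.3 to 596). It was named after its values were seen, since its mean level was under 1 FPKM. Il1rl2, between Il1r1 and Il1rl1 and the nearest to Il1r1, had 5, 1 and 0 reads, a ratio of 0.24 in NIK over β-Gal (0.00507 to 2.14) that includes 1, and the IL-18 receptor genes Il18r1 and Il18rap had at most 1 read per library. Within this cluster NIK thus held more transcript of Il1r2 and Il1rl1 and less of Il1r1 than either other library.

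**Figure D3:**
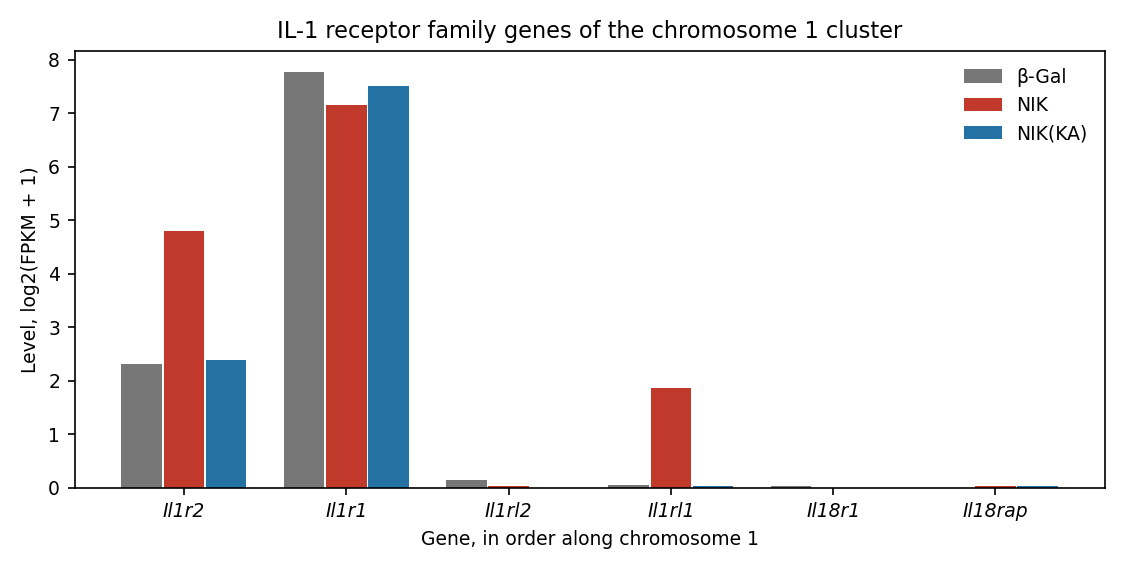
Level of the 6 IL-1 receptor family genes of the chromosome 1 cluster as log2(FPKM + 1), in their order along the chromosome, with bars from 0 for the β-Gal (grey), NIK (red) and NIK(KA) (blue) library. Il1r2 and Il1rl1 have their tallest bar in NIK and Il1r1 its shortest.

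Transcripts of the signalling proteins below the receptors differed little. Myd88 (ENSMUSG00000032508, chromosome 9, 119335934 to 119341411, minus strand), the adaptor of the TIR domain that these receptors share, had levels of 2.08 (β-Gal), 2.46 (NIK) and 2.89 FPKM (NIK(KA)). The intervals of the 3 libraries overlap, and the ratio was 1.18 in NIK over β-Gal (0.815 to 1.71) and 1.39 in NIK(KA) over β-Gal (0.981 to 1.97). Myd88 shares 290 of its 2576 exonic bases with Acaa1a on the other strand, which was at 46.5 to 53.4 FPKM, and without a stated strand setting reads of that stretch cannot be told apart.

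Transcripts of the 3 kinases were at different levels but did not differ between libraries by 2-fold. Irak1 (ENSMUSG00000031392, chromosome X, 74013914 to 74023918, minus strand), the kinase that is phosphorylated on recruitment to MyD88, had levels of 94.6 (β-Gal), 100.4 (NIK) and 90.0 FPKM (NIK(KA)). NIK was the highest library by a narrow margin, at 1.06-fold over β-Gal (1.00 to 1.12) and 1.12-fold over NIK(KA) (1.05 to 1.18). With the libraries scaled by their upper quartile the log2 difference from β-Gal was 0.0064. Irak2 (ENSMUSG00000060477, chromosome 6, 113638467 to 113695026, plus strand), a related kinase that sustains the signal, was at 5.68, 4.38 and 5.30 FPKM. Its lowest level was in NIK, at a ratio of 0.771 to β-Gal (0.591 to 1.001), which includes 1, and the intervals of the 3 libraries overlap. Irak4 (ENSMUSG00000059883, chromosome 15, 94543643 to 94581815, plus strand), the first kinase to bind MyD88, was at 0.780, 1.07 and 0.994 FPKM. Its 36, 41 and 41 reads gave a ratio of 1.37 in NIK over β-Gal (0.852 to 2.20), so no difference was detectable at this depth. Irak4 shares 395 of its 5021 exonic bases with Twf1 on the other strand, at 55.7 to 56.5 FPKM, with the same limit as for Myd88.

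Traf6 (ENSMUSG00000027164, chromosome 2, 101678429 to 101701669, plus strand), which builds the ubiquitin chains that TAK1 and IKK bind, stood at 16.1 FPKM (15.1 to 17.2) in β-Gal, at 21.8 (20.5 to 23.2) in NIK and at 15.6 (14.5 to 16.7) in NIK(KA). Here too NIK was the high library, and its interval does not overlap the others. The ratio was 1.35 over β-Gal (1.23 to 1.48) and 1.40 over NIK(KA) (1.27 to 1.54), below the 2-fold rule, while NIK(KA) over β-Gal was at 0.966 (0.876 to 1.07).

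The rest of the pathway was read from 8 lists with 77 genes, of which 40 passed the filter. In NIK against β-Gal 15 of the 40 were higher and 0 lower, beside the 5.14% and 1.48% of all genes tested. Against NIK(KA) the counts for NIK were also 15 and 0, beside 5.07% and 1.1%. In NIK(KA) against β-Gal 0 were called, beside 0.68% of all genes tested. Of the 15, 7 were under 1 FPKM in both other libraries and so passed the filter through NIK alone. Of the 33 genes with a mean of at least 1 FPKM over β-Gal and NIK(KA), 8 were higher in NIK. The share of all genes under this second filter was not computed, so the 8 have no matching background. The lists were chosen with earlier results of these data known, and several of the genes are established NF-κB targets.

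Among 8 co-receptors and chaperones of Toll-like receptors, 6 passed the filter. Of these, 2 were higher in NIK, Lbp and Unc93b1, beside 5.14% of all genes tested. The median log2 difference from β-Gal was 0.61 over the 6, beside -0.02 over all genes tested. Over all 8 it was 0.36, beside 0 over all detected genes. Lbp, the binding protein that hands lipopolysaccharide to CD14, had levels of 1.76 (β-Gal), 9.26 (NIK) and 1.65 FPKM (NIK(KA)), a ratio of 5.26 in NIK over β-Gal (3.85 to 7.30). Unc93b1, the chaperone that carries TLR3 and other endosomal receptors out of the endoplasmic reticulum, was at 2.83, 11.7 and 3.53 FPKM, a ratio of 4.15 (2.95 to 5.94). Both had their high value in NIK alone. Of the co-receptors, Ly96, the partner of TLR4, was at 12.1, 18.7 and 9.70 FPKM, while Tlr4 itself had 2 to 3 reads in each library.

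Transcripts of the IL-1 family ligands were low. Of 11 ligands and antagonists only Il18bp, a secreted inhibitor of IL-18, passed the filter, and it was not called in any comparison. The Il18bp ratio in NIK was 1.36 over β-Gal (1.15 to 1.62) and 1.71 over NIK(KA) (1.41 to 2.08), and both intervals leave out 1. The IL-1 genes Il1a and Il1b had 22, 14 and 13 reads and 4, 1 and 5 reads in β-Gal, NIK and NIK(KA). Their intervals for NIK over β-Gal, 0.361 to 1.56 and 0.00609 to 3.03, include 1.

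The other adaptors with a TIR domain were not called either, with 0 of 3 past the filter higher or lower. Tirap, which bridges TLR2 and TLR4 to MyD88, had levels of 2.78 (β-Gal), 2.41 (NIK) and 2.38 FPKM (NIK(KA)). Ticam1, the adaptor of TLR3, was at 3.35, 2.84 and 3.51 FPKM. Both kept within counting error in NIK against β-Gal, with ratios of 0.866 (0.628 to 1.19) and 0.847 (0.673 to 1.06). Sarm1, the other adaptor past the filter, was at 7.69, 10.6 and 9.54 FPKM. Its ratio in NIK over β-Gal, 1.38 (1.19 to 1.59), has an interval that leaves out 1. At the TAK1 and IKK step 2 of 15 genes, Ikbke and Tifa, were higher in NIK, beside 5.14% of all genes tested. Both passed the filter through NIK alone. Ikbke, a kinase related to TBK1, was at 0.427, 28.2 and 0.477 FPKM, a ratio of 66.2 in NIK over β-Gal (41.1 to 114). Tifa, a TRAF6-binding adaptor, was at 0.414, 3.86 and 0.499 FPKM, a ratio of 9.32 (5.21 to 18.1). Map3k7, which encodes TAK1 itself, had a ratio of 0.971 (0.922 to 1.02), and the list's median difference of 0.10 was near that of all genes.

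Inhibitors of the pathway included several genes higher in NIK. Of 8, all past the filter, 5 were called higher against β-Gal, beside 5.14% of all genes tested. Of the 5, 1, Zc3h12a, passed the filter through NIK alone. The median difference was 1.92 over the 8, beside -0.02 over all genes tested. This list too was chosen with earlier results of these data known. Irak3 encodes IRAK-M, a relative of the IRAK kinases that restrains signalling from MyD88. Its levels were 3.09 (β-Gal), 10.03 (NIK) and 3.05 FPKM (NIK(KA)), a ratio of 3.24 in NIK over β-Gal (2.62 to 4.04) and of 0.986 in NIK(KA) over β-Gal (0.7501 to 1.29). Irak3 was called, and Irak1 and Irak2 were not; whether their differences differ was not tested. Tnip1, a partner of A20, had a ratio of 14.6 in NIK over β-Gal (13.1 to 16.4), and Zc3h12a, the ribonuclease regnase-1 that degrades inflammatory transcripts, one of 16.8 (9.37 to 33.2). Nfkbia and Tnfaip3 were the other 2. The IL-1 receptor inhibitor Sigirr had 0, 9 and 3 reads. Its level in NIK was 3.60-fold a floor of 3 reads in β-Gal, with the 9 reads taken as exact. Sigirr was under the filter.

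Of 11 response genes of Toll-like receptors and IL-1, 6 passed the filter and 5 of them were higher in NIK, beside 5.14% of all genes tested. Of these 5, 4 (Cxcl1, Ccl2, Lcn2 and Saa3) were under 1 FPKM in both other libraries and passed the filter through NIK alone, so the count was largely set by the filter. Of the 2 genes with a mean of at least 1 FPKM over β-Gal and NIK(KA), 1, Nfkbiz, was higher. No share of all genes was computed under that filter. The median log2 difference from β-Gal over all 11 was 1.24. Lcn2, the iron-trapping protein lipocalin-2, had 361 reads in NIK, beside 2 in β-Gal and 1 in NIK(KA), a ratio of 217 in NIK over β-Gal (59.5 to 1796). Saa3, an acute-phase protein, had 2, 347 and 2 reads, a ratio of 208 (57.2 to 1726). Cxcl1 and Ccl2, both chemokine genes, were higher as well. Among the genes under the filter, Tnf, a classical cytokine target of the same receptors, had 0, 35 and 0 reads. Its level in NIK, 1.45 FPKM, was 14.0-fold a floor of 3 reads in β-Gal and 12.5-fold one in NIK(KA). These folds take the 35 reads as exact and are not lower limits. Il6 and Csf3, also classical targets, had at most 7 and 4 reads in any library, and Csf2 and Ptgs2 were at 0.242 and 0.107 FPKM in NIK.

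**Figure D4:**
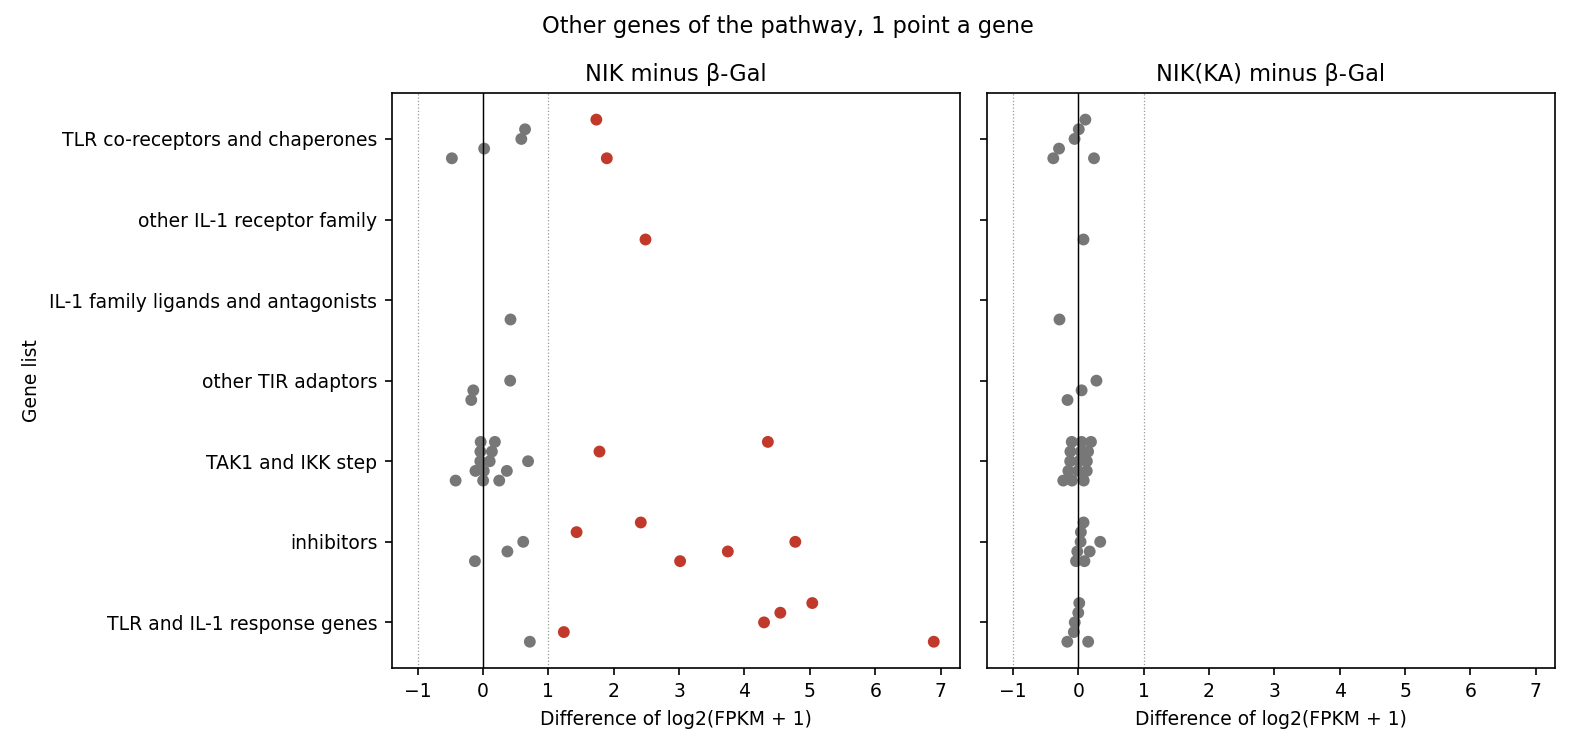
Difference of log2(FPKM + 1) for the 40 genes of the other pathway lists that passed the filter, 1 point per gene, in NIK minus β-Gal (left) and NIK(KA) minus β-Gal (right); red points differ by at least 1 (dotted lines). On the left 15 points are red, 5 of them inhibitors and 5 response genes, and on the right 0.

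Over the 3 libraries, the protein-coding genes with the profile most like that of Tlr2, by Euclidean distance between log2(FPKM + 1) values, were Cd4 at a distance of 0.10, Ip6k3 at 0.15 and Enpp2 at 0.17. Cd4 had levels of 0.0818 (β-Gal), 5.59 (NIK) and 0.0457 FPKM (NIK(KA)). With 3 libraries, such a likeness says only that these genes were near 0 in the same 2 libraries and at a like level in NIK.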

How the data were processed

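RNA sequencing of 3 libraries, 1 each for β-Gal, NIK and NIK(KA), was used. TopHat2, HTSeq 0.6.1 and GRCm38 were used per the submitters' processing notes; which step each did, the annotation release and the strand setting are not stated there. Each gene ID has an FPKM value, computed by the authors. Symbols came from GENCODE M21, which holds 52403 of the 52948 IDs and all 10 genes.

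FPKM are whole multiples of the value of 1 read. The library total was taken as the commonest whole value that genes with 1 read give, at mean transcript lengths rounded to whole bases, and whole reads, within 0.001 of a read, followed for 26581 of 26584 detected genes. The implied length was within 1 base of GENCODE M21 for 89.5% of genes and for all 10; Unc93b1 is among the rest. Reads served for exact intervals: Poisson for levels, conditional binomial for ratios, 95%, counting error only. Without molecular identifiers, reads may be copies of 1 molecule.

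Calls were a difference of log2(FPKM + 1) of at least 1 among the 12950 genes whose FPKM averaged 1 or more, Map3k14 left out. Named are the 10 genes, up to 4 called genes per list by size, and Irak3, Tirap, Ticam1, Map3k7, Sigirr and Nfkbia; others were chosen after their values were seen. The 10 genes and all lists were chosen with earlier results of these data known. Scripts were tested on simulated data. Protein sequences were not used here. Python 3.11.15, pandas 2.3.3, numpy 2.4.6, scipy 1.17.1 and matplotlib 3.10.9 were used.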

Additional observations from a re-analysis of the deposited data

How the results depend on the processing

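No paired analysis was possible because each group has 1 library. The alternatives changed the pseudocount, the filter, the scaling, the genes or the call rule, and none reversed a called difference of the 10 genes. Tlr2 was the 1 gene called in NIK against β-Gal and against NIK(KA) under 8 of 9 alternatives; at a minimum mean FPKM of 5 it was under the filter, by construction, and 0 were called in both. With no filter and a pseudocount of 0.1, an alternative added after the data were seen, 2 were called in each, Tlr2 and Tlr3. The number of all genes called moved more. For NIK against β-Gal it was 858, 498 at a minimum mean FPKM of 5, 411 with a pseudocount of 5 and 4771 with no filter and a pseudocount of 0.1. For NIK against NIK(KA) it was 799, and 437, 369 and 4952 under the same 3. For NIK(KA) against β-Gal it was 88, and 10, 7 and 3199 under these, 222 with no filter, 247 with a pseudocount of 0.1, 15 with protein-coding genes only and 33 with a counting interval that excludes 1. Upper-quartile scaling moved the difference of Il1r1 in NIK against β-Gal from -0.62 to -0.70 and that of Irak1 from 0.09 to 0.01. Depth limits Tlr2, Tlr3 and Tlr4 in β-Gal and NIK(KA), with 1 to 6 reads.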

Other observations

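Matches to the κB consensus in the same RefSeq promoter windows were also counted for the other genes of the pathway. Of the 15 listed genes higher in NIK than in β-Gal 11 had a window, and 5 of these held a match (Cxcl1, Nfkbia, Tifa, Tnfaip3 and Tnip1). Of the 25 listed genes past the filter that were neither higher nor lower, 21 had a window and 2 held a match (Cyld and Map3k7). The share over all genes was 9.55%. Several listed genes were chosen as known NF-κB targets, so the counts are a description of these windows.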
